A study of Mus musculus with 9 samples.

Results

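The expression of 9 complement genes was examined in cultured mouse cells that the study names retinal ganglion cells (RGCs). The genes were the components C3 and C4b, the proteases C1ra, C1s1, C1rl and Cfb, and the regulators Cd55, Cd59a and Serping1. They were picked by symbol from a table of 22322 genes, each symbol matched 1 row, and the C1q genes, which macrophages make, were left out of the group. The choice was made with the differences between these same libraries already known, so the levels and fold changes of the 9 genes are a description. Where one of them is said to be called, this tells only where it fell in the fit of all genes and is no independent evidence of its difference.

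The study sequenced wild-type RGCs in 3 groups with 3 libraries each. Normal RGCs were untreated, aging RGCs were treated with D-galactose, a sugar used to induce senescence in culture, and aging RGCs + USCs medium were aging RGCs given medium conditioned by urine-derived mesenchymal stem cells (USCs), from which the stem cells had been removed. The cells were purchased and kept in serum, and the replicates were wells of a culture plate, so p-values measure only the spread between these wells, which may be technical. Aging RGCs were set against normal RGCs, and aging RGCs + USCs medium, called the medium group here, against each of the others. These 3 comparisons share libraries and are not independent of each other.

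The complement system is a set of plasma proteins that cut and activate each other on a surface. C1r and C1s are the serine proteases of the first component, C4 and C3 are then cleaved and bind to the surface, and factor B, encoded by Cfb, joins C3b in the amplification loop. Serping1 encodes the C1 inhibitor, which blocks C1r and C1s, while CD55 takes apart the C3 convertases and CD59 stops the membrane attack complex. In the retina complement is known for tagging synapses and for its regulation by glia and the pigment epithelium.

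Library totals ran from 18189616 to 22342288 expected counts, estimated read numbers that can carry decimals. Levels are given as CPM, counts scaled to library size with TMM factors, or as FPKM, which is also scaled to transcript length, where genes are compared with each other. The labelled cell type was checked against a list of 9 RGC markers. Among these Rbpms, Nefl and Isl1 had at least 215 counts in every library. Pou4f2 had 0 in all 9 libraries, Thy1 at most 1 and Sncg 3 to 7. Slc17a6 had 0 to 4 counts, Nefm 1.32 to 23.5 and Pou4f1 2 to 27. The name RGCs is therefore used as the study's label, and these markers do not establish the identity of the cells. Of the 4 RGC markers in the fit, Rbpms, Nefl and Isl1 were lower in aging than in normal RGCs. Pou4f1 was higher, at 0.876 against 0.456 CPM without overlap, but was not called. The summed level of the 9 was 139 to 150 CPM in normal RGCs. It was 99.2 to 103 CPM in the aging group and 75.3 to 83.5 CPM in the medium group. Between the medium and aging RGCs only Nefl was called lower (17.2 against 38.4 CPM). Rbpms (48 against 49.6 CPM), Isl1 (13 against 11.9 CPM) and Pou4f1 (0.423 against 0.876 CPM) were not called. The part of these marker shifts in the differences below was not tested. Of 5 epithelial markers, the keratins Krt8, Krt18 and Krt19 each had at least 4578 counts per library, while Epcam had 26 to 56 and Cdh1 0 to 5. Within a group, each pair of libraries differed by more than counting noise, with a mean chi-square per gene of 2.21 to 5.1. In these bulk cultures fewer cells of a type and less RNA per cell cannot be told apart.

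The 9 genes differed widely in level. C3, C1ra, C1s1, C1rl and Serping1 passed the low-count filter of edgeR with 12145 genes in all, and C4b, Cfb, Cd55 and Cd59a did not. In normal RGCs C1s1 (7.26 ± 0.758 FPKM, SD, n = 3) and C1ra (7.1 ± 0.348 FPKM) were the most abundant, with overlapping values, and C3 followed at 4.99 ± 0.879 FPKM, below the lowest C1ra library. C1rl stood at 2.28 ± 0.107 FPKM and Serping1 at 1.07 ± 0.551 FPKM. In aging RGCs the order was led by C3 at 13.1 ± 1.51 FPKM, above every C1s1 library (8.15 ± 1.21 FPKM), and C1ra followed at 5.69 ± 0.385 FPKM without overlap with C1s1. In aging RGCs + USCs medium C3 stayed first at 10.8 ± 1.16 FPKM, and C1ra (7.4 ± 0.59 FPKM) and C1s1 (6.48 ± 1.18 FPKM) overlapped again. C1rl and Serping1 remained the lowest of the 5, at 2.71 ± 0.206 and 0.29 ± 0.165 FPKM.

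Among the 5 genes in the fit, C3 had the largest fitted difference between aging and normal RGCs. This gene, ENSMUSG00000024164 on the reverse strand of chromosome 17 at 57203970 to 57228136 (GRCm38, the build also called mm10, GENCODE M21), encodes the central protein on which all routes of complement activation meet. Its levels were 20.9, 25.9 and 22.7 CPM in normal RGCs, 49.2, 51.5 and 51.6 CPM in aging RGCs, and 42.9, 45.1 and 48.2 CPM in aging RGCs + USCs medium. All 6 libraries that received D-galactose lay above all 3 normal ones, and the medium libraries lay below the aging ones without overlap. For C3, aging RGCs were higher than normal RGCs by 1.14 on the log2 scale (standard error 0.068, 95% interval 1 to 1.28), which is 2.2-fold. The medium group differed from aging RGCs by -0.16 on that scale (standard error 0.0634, 95% interval -0.29 to -0.03) and from normal RGCs by 0.97 (standard error 0.0685). The small difference between medium and aging RGCs did not hold as a call without any 1 of 4 libraries: its log2 fold change was -0.15 without aging replicate 2, aging replicate 3 or medium replicate 2, and -0.12 without medium replicate 1, and none of these was called. Nor was it called with DESeq2 (-0.16) or with limma on log2(FPKM + 1) or log2(FPKM + 0.1) (-0.25 and -0.27). Of 5 mesenchymal markers, Vim was higher in aging than in normal RGCs (2006 against 1694 CPM) and Col1a1 (7.98 against 14.7 CPM) and Pdgfrb (2.86 against 4.9 CPM) were lower. The summed level of the 5 was nearly all Vim, at 1680 to 1770 CPM in normal RGCs and 1900 to 2050 CPM in the other 6 libraries, and its part in the C3 difference was not tested.

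**Figure D1:**
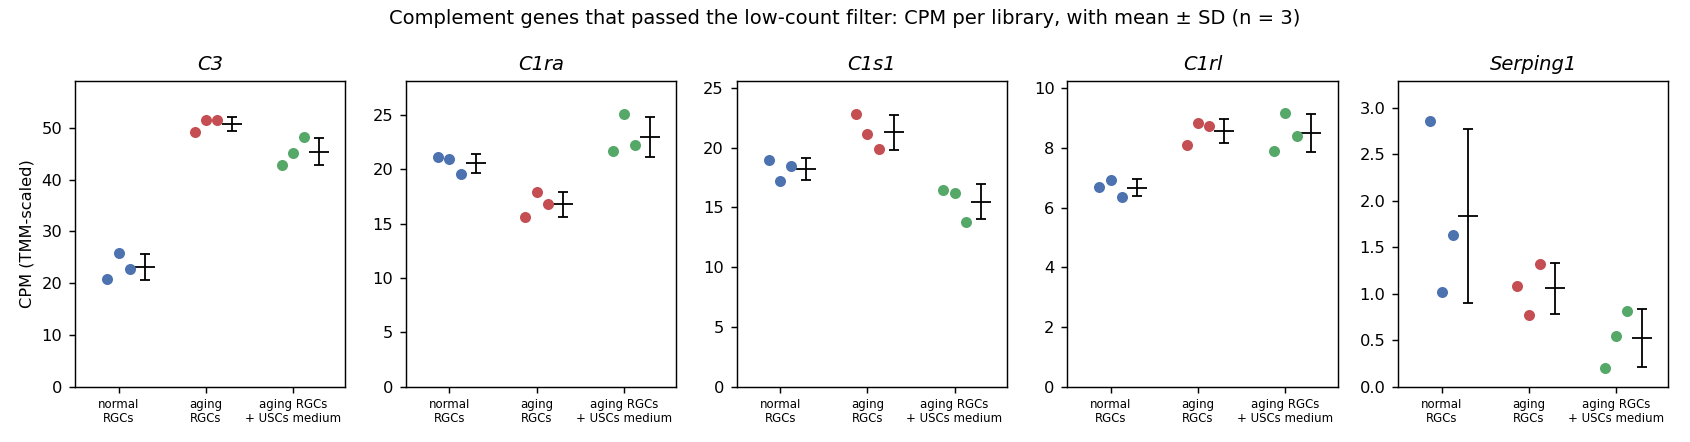
CPM of C3, C1ra, C1s1, C1rl and Serping1 (y axes, each from 0) in the 3 libraries of each group (x axis); points are libraries and bars the mean ± SD. C3 lies at 20.9 to 25.9 CPM in normal RGCs and at 42.9 to 51.6 CPM in the other 6 libraries, and C1ra and C1s1 move in opposite directions.

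The stretch before the C3 start is shown because C3 had the largest difference in aging RGCs. That of C1s1 is shown as a further match of the same motif, which C1rl also holds. RefSeq promoter sequences (GRCm38.p6) were at hand for C3, C1ra, C1s1, C1rl, Cd55 and Cd59a, 6 of the 9 genes. The 250 bases before each RefSeq start were searched on both strands for letters of factors that act on acute-phase and immune genes: C/EBP (TTGCNNAA), STAT (TTCNNNGAA), NF-kB and the interferon response element. For C1ra this window (chr6:124512371-124512620) lies mostly inside the gene as GENCODE places it, from 124512405. The C/EBP letters were found upstream of C3, where they begin 45 bases before the start, of C1rl and of 1 of the 2 starts of C1s1. In C1rl and C1s1 they lie far from the start, at -243 and -242. They are in capitals below for C3 (chr17:57228137-57228386, reverse strand) and for C1s1 (chr6:124542360-124542609, reverse strand), both written 5′ to 3′ toward the start, and the C1s1 match is read on the other strand.
C3: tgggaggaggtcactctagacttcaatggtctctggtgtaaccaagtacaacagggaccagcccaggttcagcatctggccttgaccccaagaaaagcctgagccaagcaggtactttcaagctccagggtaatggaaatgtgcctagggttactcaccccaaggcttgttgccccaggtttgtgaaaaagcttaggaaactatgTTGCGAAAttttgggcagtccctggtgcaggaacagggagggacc
C1s1: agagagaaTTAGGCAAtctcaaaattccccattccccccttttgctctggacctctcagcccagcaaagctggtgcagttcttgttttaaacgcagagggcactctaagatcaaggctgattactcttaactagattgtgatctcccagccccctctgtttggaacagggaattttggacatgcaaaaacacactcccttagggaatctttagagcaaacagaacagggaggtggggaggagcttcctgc
The same letters stand upstream of 9.56% of all 32851 promoters searched. No NF-kB or STAT letters were in any of the windows, and the interferon letters were present only before Cd59a, against 1.41%, 7.02% and 2.98% of all promoters.

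The deposited FPKM values of C3 told of a larger difference than its counts. Aging over normal RGCs was 2.63-fold in FPKM and 2.16-fold in counts over the library total. The length that links both values, the count divided by FPKM and by the library total, was computed for every library after this was noticed. It was 4.87, 4.44 and 5.14 kb in normal RGCs, 4.04, 3.51 and 4.3 kb in aging RGCs, and 4.24, 3.6 and 4.29 kb in aging RGCs + USCs medium. Every normal library thus lay above every other library. The mean of the normal libraries was 4.81 ± 0.353 kb and that of the aging libraries 3.95 ± 0.401 kb, a difference that was noticed in these libraries and is given without a test. Of 9494 genes with at least 100 counts in every library, 0.474% had a shift between normal and aging RGCs as large as that of C3. C3 was looked at because of this shift, and the 9494 genes were not matched to it in annotated transcripts. The share is therefore no test. The longest annotated C3 transcript has 5136 bases, and 3 shorter ones have 662, 554 and 315 bases. For C1ra and C1rl the implied length hardly moved (2.98 kb, and 3.01 to 3.02 kb), whereas for C1s1 it ranged from 2.03 to 2.92 kb with no order by group.

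**Figure D2:**
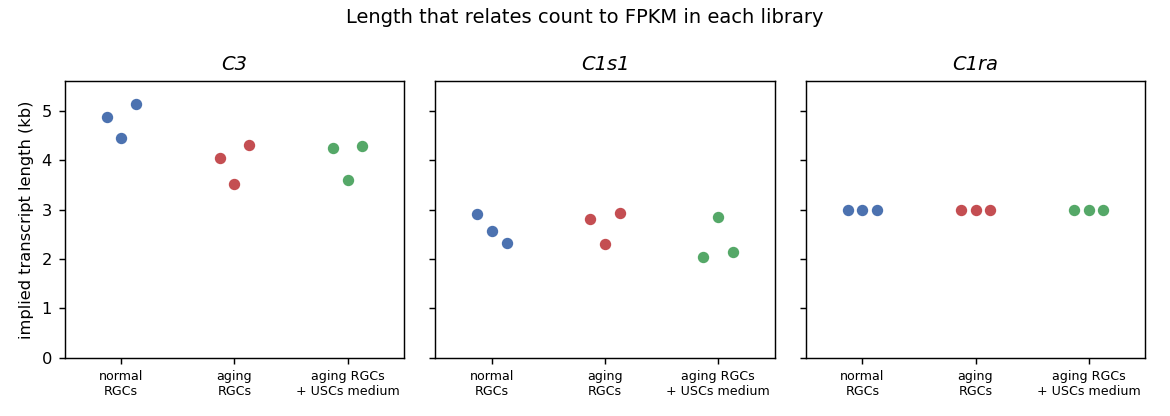
Transcript length in kb (y axis, from 0) that relates the deposited count to the deposited FPKM, for C3, C1s1 and C1ra in each library of the 3 groups (x axis); points are libraries. For C3 the 3 normal libraries lie at 4.44 to 5.14 kb and the other 6 at 3.51 to 4.3 kb, while C1ra stays at 2.98 kb.

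The protease genes C1ra and C1s1, whose products form 1 complex, differed in opposite directions. Both lie on chromosome 6 with C1rl between positions 124493113 and 124542359 of GRCm38: C1rl on the forward strand at 124493113 to 124510643, C1ra on the forward strand at 124512405 to 124523443, and C1s1 on the reverse strand at 124530345 to 124542359. C1ra had 21.2, 21 and 19.5 CPM in normal RGCs, 15.6, 17.9 and 16.8 CPM in aging RGCs, and 21.7, 25.1 and 22.2 CPM in aging RGCs + USCs medium. The aging libraries were the lowest for C1ra, with no overlap with either other group. Its log2 fold change was -0.29 (standard error 0.082) for aging against normal RGCs and 0.46 (standard error 0.0816) for the medium against aging RGCs. Between the medium and normal RGCs the log2 fold change of C1ra was 0.16, with a 95% interval of 0 to 0.32. Of 6 glial markers, Gfap, Aqp4, S100b, Slc1a3 and Rlbp1 had at most 3 counts in any library. The summed level of the 6, 94.3 to 106 CPM in normal and aging RGCs and 126 to 129 CPM in the medium group, was thus that of Glul, glutamine synthetase, which many cell types express.

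C1s1 had 19, 17.2 and 18.5 CPM in normal RGCs, 22.8, 21.2 and 19.9 CPM in aging RGCs, and 16.5, 16.2 and 13.8 CPM in aging RGCs + USCs medium. Here the aging libraries were the highest and the medium libraries the lowest, and no pair of groups overlapped. The log2 fold change of C1s1 was 0.22 (standard error 0.0835) for aging against normal RGCs, -0.46 (standard error 0.086) for the medium against aging RGCs, and -0.23 (standard error 0.0865) for the medium against normal RGCs. The difference between aging and normal RGCs was no longer called without aging replicate 1 (0.17), aging replicate 2 (0.22), normal replicate 2 (0.18) or normal replicate 3 (0.23), nor with DESeq2 (0.22) or without TMM factors (0.2). That between the medium and normal RGCs was no longer called without normal replicate 1 (-0.2), normal replicate 3 (-0.23) or medium replicate 3 (-0.16). On the FPKM scale C1s1 was called in none of the 3 comparisons, and at a pseudocount of 1 the log2 fold change of the medium against aging RGCs was -0.29.

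Both genes have close duplicates in the mouse genome, and reads may be shared between copies. Of the stretches of 50 bases in the longest transcript of C1ra, 50.8% also occur in another gene, mainly C1rb, and of those of C1s1 24.3%, mainly in C1s2. C1rb had at most 2.77 counts in a library, and C1s2 had 26 to 70.6. C1ra carried a fractional count in 3 libraries and C1s1 in 5. When each pair was summed, an alternative chosen after seeing the data, the C1r pair had log2 fold changes of -0.3 (aging against normal RGCs) and 0.46 (medium group against aging RGCs), and the C1s pair of 0.23 and -0.52. C1s1 also overlaps Gm16567 and C1rl overlaps Gm44096 on the other strand, and the handling of strand is not given in the sources used here.

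C1rl encodes a protease related to C1r. It stood at 6.71, 6.93 and 6.36 CPM in normal RGCs, at 8.11, 8.86 and 8.76 CPM in aging RGCs, and at 7.91, 9.18 and 8.4 CPM in aging RGCs + USCs medium. All 6 libraries of the D-galactose groups lay above the normal ones, and those groups overlapped each other. The log2 fold change was 0.36 (standard error 0.121) for aging against normal RGCs, 0.35 (standard error 0.12) for the medium against normal RGCs and -0.01 (95% interval -0.26 to 0.23) for the medium against aging RGCs. The first was no longer called without normal replicate 3 (0.33), the second without medium replicate 2 (0.29), without TMM factors (0.25) or with limma on either FPKM scale.

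Serping1, the gene of the C1 inhibitor on the reverse strand of chromosome 2 at 84765387 to 84775444, was the least abundant of the 5 and the most variable. It had 66, 21 and 33 counts in normal RGCs, 20, 15 and 26 counts in aging RGCs, and 4, 11 and 16 counts in aging RGCs + USCs medium. As CPM these were 2.86, 1.02 and 1.63, then 1.08, 0.772 and 1.32, then 0.205, 0.546 and 0.819. The medium libraries lay below all normal libraries, while the aging libraries overlapped both other groups. The log2 fold change was -1.81 (standard error 0.42, 95% interval -2.67 to -0.95) for the medium against normal RGCs, or 3.51-fold lower. For aging against normal RGCs it was -0.81 (95% interval -1.57 to -0.04) and for the medium against aging RGCs -1.0 (95% interval -1.95 to -0.06), and neither was called after adjustment over all genes. Calls for Serping1 turned on single libraries and on settings of the fit. Without normal replicate 2, aging against normal RGCs stood at -1.09 and the medium group against aging RGCs at -1.0, both called. Without medium replicate 3 the latter was -1.47 and called. The medium group against aging RGCs was also called without the low-count filter (-1.0) and with only the groups compared (-1.01). Without normal replicate 1, which holds 66 counts, the value for aging against normal RGCs was -0.32.

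**Figure D3:**
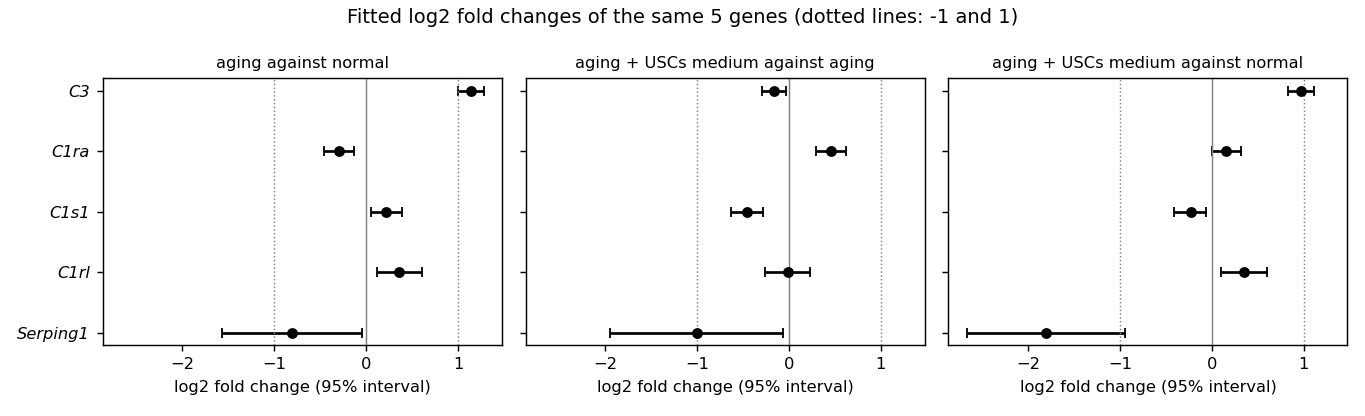
Fitted log2 fold changes with 95% intervals (x axis) of C3, C1ra, C1s1, C1rl and Serping1 (y axis) in the 3 comparisons; dotted lines mark -1 and 1. C3 lies at 1.14 and 0.97 against normal RGCs and at -0.16 between medium and aging RGCs, and Serping1 has the widest intervals.

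A gene was called at a Benjamini-Hochberg adjusted p under 0.05 in edgeR's quasi-likelihood fit of all genes, and a DEG also lay at least 1 from 0 on the log2 scale. Of the 9 genes only 5 were tested, and the others could not be called. C3, C1s1 and C1rl were called higher and C1ra lower in aging than in normal RGCs, 80% of those tested. Of all genes tested 46.5% were called there, 23.5% higher and 23% lower. C3 was the 1 DEG among the 5 tested in this comparison, against 2.65% of all genes, 1.09% higher and 1.56% lower. In the medium group against aging RGCs C1ra was called higher and C3 and C1s1 lower, 60% of those tested. Of all genes 53.1% were called there, 27.1% higher and 26% lower. None of the 5 tested was a DEG there, against 5.44% of all genes, 1.24% higher and 4.21% lower. In the medium group against normal RGCs C3 and C1rl were called higher and C1s1 and Serping1 lower, 80% of those tested. Of all genes 60.5% were called there, 30.6% higher and 29.9% lower. Serping1 was the 1 DEG of that comparison, against 6.72% of all genes, 1.47% higher and 5.24% lower. In the order of these comparisons, the libraries of the groups did not overlap for 4, 3 and 5 tested members, against 53%, 59.8% and 63.8% of all genes tested. Without TMM factors the share of all calls that were higher went from 51.1% to 35.9% for the medium against aging RGCs and from 50.6% to 34.7% for the medium against normal RGCs, and the median of all genes in the latter from -0.01 to -0.11. The directions of all called values of C3, C1ra, C1s1, C1rl and Serping1 were the same under every scaling.

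The other 4 genes were close to the limit of detection. C4b, the complement component of the classical route on chromosome 17 at 34728380 to 34743882, had 11, 5 and 2 counts in normal RGCs, 2, 3 and 3 counts in aging RGCs, and 7, 7 and 8 counts in aging RGCs + USCs medium. The medium libraries of C4b lay above all aging libraries and within the range of the normal ones. Cfb, on chromosome 17 at 34856374 to 34862518, had 6, 4 and 12.4 counts in normal RGCs, 5, 0 and 1 in aging RGCs, and 1, 4 and 3 in aging RGCs + USCs medium, so the groups overlapped. Of the stretches of 50 bases of Cfb, 81.4% are also in Gm20547, which overlaps it on the same strand, and of those of C4b 35.2% are shared, mainly with C4a.

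Cd55, the membrane regulator on chromosome 1 at 130439027 to 130462744, had 1, 0 and 2 counts in normal RGCs, 1, 0 and 1 in aging RGCs and 0 in each library with USCs medium. A count of 0 over the 3 medium libraries allows a level of up to 0.0487 CPM (3 counts, counting error only). Cd59a, on chromosome 2 at 104095801 to 104115354, had 7, 7 and 7 counts in normal RGCs, 2, 9 and 1 in aging RGCs, and 4, 1 and 0 in aging RGCs + USCs medium. The medium libraries of Cd59a lay below the normal ones, but at these counts no fold change is given.

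**Figure D4:**
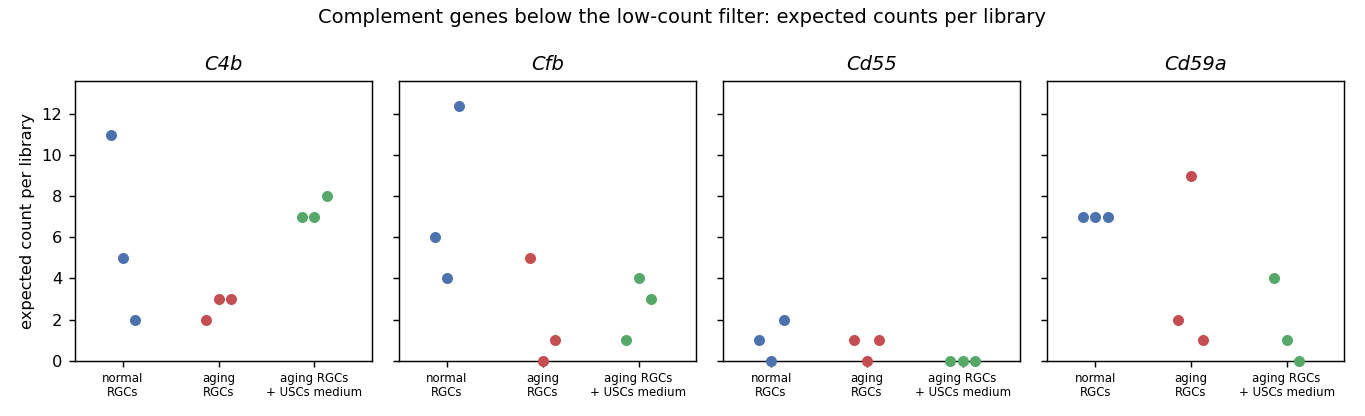
Expected counts (y axis, from 0) of C4b, Cfb, Cd55 and Cd59a in the 3 libraries of each group (x axis); points are libraries. No library exceeds 12.4 counts, and Cd55 is at 0 in all 3 libraries with USCs medium.

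The genes most like C3 across the 9 libraries were Insig1, Mgme1, Bub1, Nfx1 and Phf19, with a Pearson r of log2 CPM of 0.994, 0.991, 0.991, 0.99 and 0.99. Insig1, a regulator of sterol synthesis, stood at 38.5 CPM in normal RGCs, 86.5 CPM in aging RGCs and 78.7 CPM in aging RGCs + USCs medium. Among the complement genes tested, r with C3 was 0.935 for C1rl, 0.0485 for C1s1, -0.263 for C1ra and -0.577 for Serping1. Serping1 was most like Pigv, Rora, Cacnb1, Irf7 and Dennd1a, with r of 0.936 to 0.953. The libraries share treatment groups, so these values describe likeness over 9 points and no more.

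The rest of the complement system was followed with a further list of 47 genes, of which 46 were in the table and 15 passed the low-count filter. This list was also drawn up with earlier results of these data known, and some genes below are named because they were DEGs. Calls and adjusted p-values of the listed genes are thus a description and no independent evidence of a difference. C2, Cfd, C6, C7, C8a, C8b, Mbl1 and Mbl2 were among 14 genes at 0 in every library. In aging against normal RGCs 2 of the 15 rose and 5 fell, 46.7% called. C1qb and Itgam, among the 5, passed the filter only through their high normal libraries. In the medium against aging RGCs 4 rose and 5 fell (60%), and in the medium against normal RGCs 3 rose and 8 fell (73.3%). These shares stand beside 46.5%, 53.1% and 60.5% of all genes tested. The median log2 fold changes of the 15 genes were -0.16, -0.04 and -0.56, with 0, -0.01 and -0.01 over all genes. The first 2 medians kept their values with C1qb, which was at 0 in aging RGCs, set to its bound. The limit of the filter holds for the medium against normal RGCs too. There C1qb (-1.44) was not called and Itgam (-1.2) was among the 8 that fell. No median was computed without these genes.

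Several regulators differed between groups. Clu, clusterin, an inhibitor of the membrane attack complex, stood at 352 ± 17.5 CPM (SD, n = 3) in normal RGCs, 254 ± 3.87 CPM in aging RGCs and 162 ± 5.03 CPM in the medium, with no overlap. Its log2 fold change was -0.47 for aging against normal RGCs (adjusted p = 1.88e-11 by edgeR), -0.65 for the medium against aging RGCs (adjusted p = 3.23e-14 by edgeR) and -1.12 for the medium against normal RGCs (adjusted p = 1.33e-19 by edgeR). Cr1l, the membrane regulator that rodents use beside CD55, had 519 to 697 counts in every library. It rose in the medium group to 34 ± 1.35 CPM from 27.9 ± 1.05 CPM in aging RGCs (log2 fold change 0.29, edgeR adjusted p = 0.000517) and was 28.9 ± 1.38 CPM in normal RGCs. Susd4, a further regulator, fell from 3.99 ± 0.397 to 2.06 ± 0.318 CPM in the medium (log2 fold change -0.95, adjusted p = 0.000337 by edgeR). Cd46 and Cfp passed the test in none of the comparisons, with log2 fold changes between -0.3 and -0.04.

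**Figure D5:**
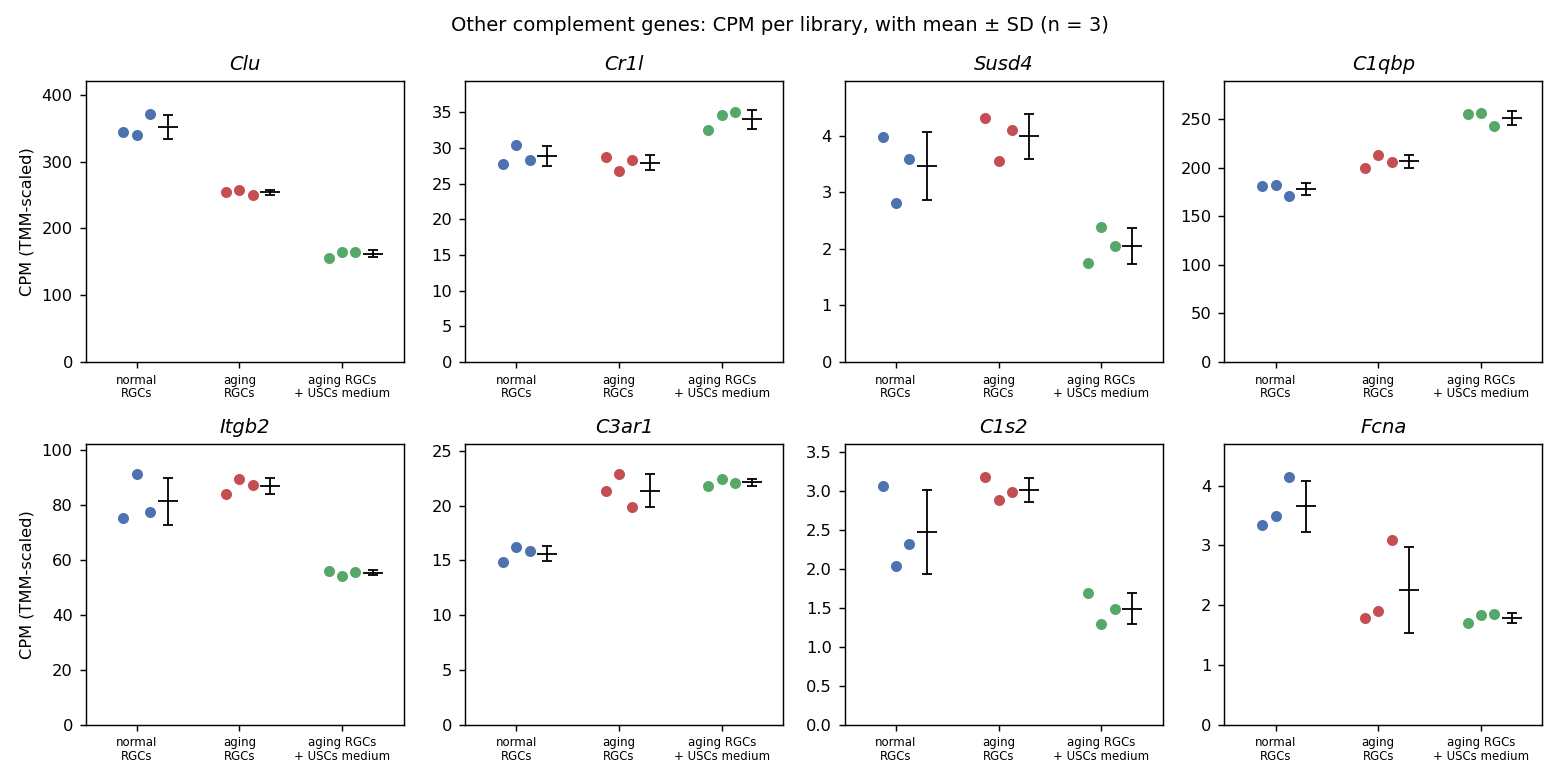
CPM (y axes, each from 0) of Clu, Cr1l, Susd4, C1qbp, Itgb2, C3ar1, C1s2 and Fcna in each library of the 3 groups (x axis); points are libraries and bars the mean ± SD. Clu falls from 352 to 254 and 162 CPM, and Cr1l is highest in the medium group at 34 CPM.

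Among receptors, C3ar1, which binds the C3a fragment, rose in aging RGCs to 21.4 ± 1.54 CPM, against 15.6 ± 0.69 CPM in normal RGCs (log2 fold change 0.45, edgeR adjusted p = 2.66e-05). It was 22.1 ± 0.3 CPM in the medium group. Itgb2, the shared chain of complement receptors 3 and 4, fell in the medium group to 55.2 ± 0.875 CPM, against 86.8 ± 2.78 CPM in aging RGCs (log2 fold change -0.65, adjusted p = 1.41e-10 by edgeR). C1qbp, a mainly mitochondrial protein first found as a binder of C1q, rose in aging against normal RGCs and in the medium group against aging RGCs, with log2 fold changes of 0.21 and 0.28 (adjusted p = 3.06e-05 and 2.13e-07 by edgeR). C1s2, the duplicate of C1s1, fell in the medium against aging RGCs (log2 fold change -1.02, adjusted p = 0.000764 by edgeR). Masp1, a protease of the lectin route, fell slightly in the medium against aging RGCs (log2 fold change -0.24, adjusted p = 0.014 by edgeR), but not without aging replicate 3 (-0.18) or medium replicate 1 (-0.2). Fcna, a lectin that starts the same route, fell in aging against normal RGCs (log2 fold change -0.69, adjusted p = 0.0135 by edgeR), which was lost without aging replicate 1 (-0.55), aging replicate 2 (-0.58) or normal replicate 3 (-0.59). Against normal RGCs, Fcna was lower in the medium (log2 fold change -1.02, adjusted p = 0.000389 by edgeR).

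C1qb, a chain of C1q, and Itgam, a chain of complement receptor 3, are genes that macrophages express. C1qb had 21, 13 and 11 counts in normal RGCs, no count in aging RGCs, and 0, 0 and 15 counts in the medium group, at least 13.7-fold higher in normal than in aging RGCs with 3 counts over the group as the floor. The call of C1qb between medium and aging RGCs rests on medium replicate 3, without which both groups are at 0. Itgam had 52, 18 and 21 counts in normal RGCs, 6, 3 and 3 in aging RGCs, and 5, 2 and 29 in the medium. It fell in aging RGCs with a log2 fold change of -2.72 (edgeR adjusted p = 0.000932). As stated above, C1qb and Itgam entered the fit only because their normal libraries were high. Their fall in aging RGCs is thus partly built into their being tested, and the adjusted p of Itgam is no independent evidence of it.

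Of 9 macrophage markers 7 were tested, and 5 fell in aging against normal RGCs, where 23% of all genes tested were called lower. The 5 were Csf1r, Lyz2, Adgre1, Tyrobp and Fcer1g. Adgre1, Tyrobp and Fcer1g passed the low-count filter only through their high normal libraries, so their fall is partly built into their being tested. The summed level of all 9 ranged from 58.5 to 68.6 CPM in normal RGCs, while aging RGCs had 44.7 to 51.4 CPM and the medium group 30.9 to 53.2 CPM, the highest of the last in replicate 3. Most of the sum was Cd68, a lysosomal protein, at 38.6 CPM in normal RGCs and 41.4 CPM in aging RGCs, which was not called between them, nor was Ptprc. Adgre1, a defining marker, had 57, 19 and 43 counts in normal RGCs, 2, 0 and 1 in aging RGCs, and 2, 2 and 32 in the medium, and Aif1 had at most 1 count in any library. Serping1 had its highest count in normal RGCs in replicate 1 and its highest in the medium in replicate 3, as Adgre1 did. In aging RGCs they differed: Serping1 was highest in replicate 3 with 26 counts and Adgre1 in replicate 1 with 2. Aging RGCs held 15 to 26 counts of Serping1 and 0 to 2 of Adgre1. The part of the macrophage markers in the differences of Serping1, C1qb and Itgam was not tested.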

How the data were processed

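RNA was sequenced from 9 libraries after enrichment of mRNA with oligo(dT). The table deposited by the authors holds expected counts without normalization. Beside them the authors gave FPKM, which scales each gene to its length and to library size. The submitters' processing notes name the build mm10. The aligner, counting program and strand setting were not given in the sources used here. Groups were taken from the sample titles. Expected counts were rounded, since 6.92% to 7.38% of a library's values carried decimals, and genes were kept by filterByExpr. TMM factors (0.956 to 1.034) and 1 mean per group were fitted to all 9 libraries with edgeR 4.0.16 in R 4.3.3, using quasi-likelihood F tests of each contrast with Benjamini-Hochberg adjustment over 12145 genes. The fit was also run on simulated counts in which far fewer genes changed than were called in these libraries. That run does not test the scaling where many genes differ. Positions come from GENCODE M21 and promoters from RefSeq.

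The members and lists were chosen with earlier results of these data known. Named genes were the 9 members, complement genes that were DEGs (1 is not reported here), duplicates of members, the 5 genes most like C3 and Serping1, and genes a sentence needed. Alternatives were DESeq2 1.42.0, no TMM or upper-quartile factors, no filter, 1 CPM in 3 libraries, only the groups compared, a replicate block, limma 3.58.1 on log2(FPKM + 1) and log2(FPKM + 0.1), DEG lines, each library left out, and, chosen after seeing the data, duplicates summed.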

Additional observations from a re-analysis of the deposited data

How the results depend on the processing

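Over 276 values of the 5 tested members under alternatives, 241 kept their direction and side of the threshold, 27 were no longer called, 5 were newly called and 3 changed sign. The latter are C1rl between medium and aging RGCs, near 0 throughout (-0.07 to 0.04 with a library left out). The 276 values include fits that left out a library of the group not compared, where little could change. They also include values that were not called with all 9 libraries and so could not lose a call. With the DEG lines, which by construction call fewer genes, members called higher and lower numbered 1 and 0 in aging against normal RGCs, 0 and 0 in the medium against aging RGCs, and 0 and 1 in the medium against normal RGCs, and the other complement genes 0 and 3, 1 and 1, and 0 and 3. In the medium against aging RGCs members called lower were 1 with DESeq2, where C3 was lost, and 0 with limma on either FPKM scale, where C1s1 was lost as well. In the medium against normal RGCs members called higher were 1 without TMM factors and 1 with limma on either scale, and members called lower were 1 with limma on either scale. The cause was not tested. C3ar1 in the medium against aging RGCs, 0.05 and not called, was -0.03 without TMM factors and -0.02 and -0.03 with limma on log2(FPKM + 1) and log2(FPKM + 0.1).

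With a library left out, members called higher and lower were 1 to 3 and 1 to 2 in aging against normal RGCs, 1 to 1 and 1 to 3 in the medium against aging RGCs, and 1 to 2 and 1 to 2 in the medium against normal RGCs. The other complement genes called lower in the medium against normal RGCs were 5 to 8, the fewest without normal replicate 1. C1qb and Itgam between medium and aging RGCs were 0 to 5.97 and -0.23 to 2.04, the lowest without medium replicate 3. Masp1 in aging against normal RGCs was -0.06 to 0.12, and Cfp was -0.41 to 0.1, -0.38 to 0.26 and -0.54 to 0.11 in the 3 comparisons. C3ar1 in the medium against aging RGCs was 0 to 0.11.

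With the replicate number as a block, members called higher and lower were 3 and 1, 1 and 2, and 2 and 2 in the 3 comparisons, as without it. Deviations of same-numbered libraries correlated at -0.134 to 0.0844, and the labels give the numbers no shared source, so a shared number was not taken as pairing. Depth limits C4b, Cfb, Cd55 and Cd59a, of which no library held over 12.4 counts.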
